A study of Mus musculus with 31 samples.

Results

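The retinas described here come from 14-day-old mice that lack Rorb and carry the CrxpNrl transgene (P14 Rorb-/-;CrxpNrl, 4 mice), set against retinas of 14-day-old wild-type mice (P14 +/+, 4 mice). These 8 arrays, taken by their genotype and age labels, are part of a series of 31 arrays. Both retinas of 1 mouse made 1 sample, and its total RNA was hybridised to an Affymetrix mouse array. The other groups used here are P14 Rorb-/- (4 mice without Rorb and without the transgene), P14 +/+;CrxpNrl (4 mice with the transgene and both Rorb alleles), P28 Rorb-/-;CrxpNrl (4 mice) and P28 +/+ (4 mice), the last pair at 28 days. The transgene is named for the Crx promoter and Nrl, and that promoter is active in developing photoreceptors, rods and cones alike. The labels give no mouse strain, no sex and no number of transgenic lines.

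Rods and cones arise from shared photoreceptor precursors. NRL, a leucine-zipper transcription factor, commits these precursors to the rod fate, and in its absence they take on a cone-like state with short-wavelength opsin. RORβ, the nuclear receptor encoded by Rorb, acts upstream of Nrl in this pathway and is also known to be needed for horizontal and amacrine cells, the interneurons of the retina. The comparison asks what still differed from wild type at P14 when Nrl was supplied without Rorb.

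All values are log2 signals of 1 probe set per gene, and a difference of 1 on that scale is 2-fold. Array medians lay between 5.84 and 5.91 over the series. Any 2 P14 Rorb-/-;CrxpNrl arrays correlated at 0.991 to 0.995 and any 2 P14 +/+ arrays at 0.993 to 0.997, while pairs across the groups correlated at 0.9745 to 0.9822. Levels of sex-linked genes gave the same make-up in both groups, with 3 of 4 mice of male pattern in each. A gene was called when limma's Benjamini-Hochberg adjusted p was under 0.05 over 18193 genes, whatever the fold. By that rule 3046 genes (16.7%) were higher and 2417 (13.3%) lower in P14 Rorb-/-;CrxpNrl than in P14 +/+ retinas. At least 2-fold differences were called for 395 higher genes (2.17%) and 392 lower genes (2.15%), and the samples of both groups did not overlap for 5285 genes (29%). The median difference over all genes was 0.0039. Because whole retinas were measured, fewer cells of a type and less RNA per cell cannot be told apart.

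Rorb, the targeted gene, had log2 signals of 9.31, 9.63, 9.04 and 8.48 in the P14 Rorb-/-;CrxpNrl retinas, against 10.85, 11.03, 11.10 and 10.88 in the P14 +/+ retinas. No sample overlapped, and the difference was -1.85 ± 0.19 (SE; adjusted p = 1.19e-08), 3.60-fold lower. All 3 Rorb probe sets were lower, by differences of -1.85, -1.85 and -2.31. Where they lie relative to the deleted part is not given in the sources used here, and a probe set outside it would check nothing. Nrl had log2 signals of 11.90, 11.33, 11.29 and 12.28 in the P14 Rorb-/-;CrxpNrl retinas, against 13.32, 13.33, 13.31 and 13.31 in the P14 +/+ retinas, a difference of -1.62 ± 0.40 (adjusted p = 0.00233). The P14 Rorb-/- retinas without the transgene read 8.78, 8.84, 10.55 and 10.54. Every retina with the transgene on the null background therefore lay above every null retina and below every wild-type retina. Nrl was 2.02 ± 0.40 higher in P14 Rorb-/-;CrxpNrl than in P14 Rorb-/- retinas (adjusted p = 0.00135). Whether the Nrl probe set reads the transgene's own transcript was not tested.

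Of 14 measured genes of rod phototransduction, 6 were called lower in P14 Rorb-/-;CrxpNrl than in P14 +/+ retinas, 8 were not called and none was called higher. The median difference was -1.10. Over all genes 13.3% were called lower and 16.7% higher in this comparison, shares that apply to every list below. The samples did not overlap for 11 of the 14, against 29% of all genes. Against P14 Rorb-/- retinas, 6 of the 14 were called higher and none lower, where 2.05% of all genes were called higher and 3.25% lower. These comparisons share the P14 Rorb-/-;CrxpNrl samples.

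Pde6b, the catalytic beta subunit of the rod phosphodiesterase, read 12.12, 11.15, 10.39 and 12.10 in the P14 Rorb-/-;CrxpNrl retinas, against 12.67, 12.74, 12.77 and 13.22 in the P14 +/+ retinas. Its difference from wild type was -1.41 ± 0.54 (adjusted p = 0.047), and it stood 3.34 ± 0.54 above P14 Rorb-/- retinas (adjusted p = 9.22e-05). The call against wild type was lost in 6 of the 8 fits that left out 1 mouse, with adjusted p up to 0.185. Cnga1, which encodes the pore subunit of the rod channel opened by cyclic GMP, read 10.96, 10.54, 10.44 and 10.77 in the P14 Rorb-/-;CrxpNrl retinas, against 11.98, 11.95, 12.002 and 11.91 in the P14 +/+ retinas. The groups were apart by -1.28 ± 0.44 (adjusted p = 0.0253), and the transgene went with a gain of 2.90 ± 0.44 over P14 Rorb-/- retinas (adjusted p = 3.81e-05). Without P14 Rorb-/-;CrxpNrl replicate 2 or 3 the adjusted p for Cnga1 was 0.0564 or 0.0663.

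Cngb1, the channel's modulatory subunit, differed from wild type by -1.07 ± 0.33 (adjusted p = 0.0141, and 0.0506 without P14 Rorb-/-;CrxpNrl replicate 3) and from P14 Rorb-/- by 2.37 ± 0.33 (adjusted p = 1.27e-05). Slc24a1, the rod sodium-calcium-potassium exchanger that extrudes calcium, differed from wild type by -1.42 ± 0.37 (adjusted p = 0.00405) and from P14 Rorb-/- by 2.63 ± 0.37 (adjusted p = 1.64e-05). Gnat1, the rod transducin alpha subunit, read 13.33, 11.80, 12.36 and 13.28 in the P14 Rorb-/-;CrxpNrl retinas, against 13.79, 13.83, 13.87 and 13.86 in the P14 +/+ retinas. Its samples did not overlap, yet the difference of -1.15 ± 0.51 did not pass (adjusted p = 0.0893), while it rose 2.73 ± 0.51 over P14 Rorb-/- (adjusted p = 0.000613).

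Guca1b, which encodes a calcium-binding activator of guanylate cyclase, had the largest deficit of the rod list. It read 10.95, 9.14, 9.29 and 10.40 in the P14 Rorb-/-;CrxpNrl retinas, against 12.78, 12.69, 12.78 and 12.92 in the P14 +/+ retinas. Its difference was -2.84 ± 0.36 (adjusted p = 3.61e-07), 7.17-fold lower, and its value relative to P14 Rorb-/- was 0.47 ± 0.36 (adjusted p = 0.561). At the other end, Sag (rod arrestin), Rcvrn (recoverin) and Pdc (phosducin) had differences of -0.10 ± 0.17, -0.32 ± 0.27 and -0.19 ± 0.19, none of them called. Their means without the transgene were 13.62, 13.02 and 12.94 in P14 Rorb-/- retinas, and none was called against those retinas either. Such signals lie close to the array maxima of 14.12 to 14.34, where differences may be compressed. Of the other members, Pde6a, the partner of Pde6b, was called lower (-1.17 ± 0.40, adjusted p = 0.027), a call lost in 4 of the 8 fits that left out 1 mouse. Gnb1, Gngt1, Pde6g and Grk1, which encode transducin and phosphodiesterase subunits and rhodopsin kinase, had differences of -0.84 ± 0.35, -0.45 ± 0.26, -0.67 ± 0.28 and -1.14 ± 0.44 without passing.

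The number of rod genes called lower depended on the fit. Fitting only the 8 compared arrays called 11 of the 14 lower, as did array weights. The count was 2 without P14 Rorb-/-;CrxpNrl replicate 3 and 3 without replicate 2.

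**Figure D1:**
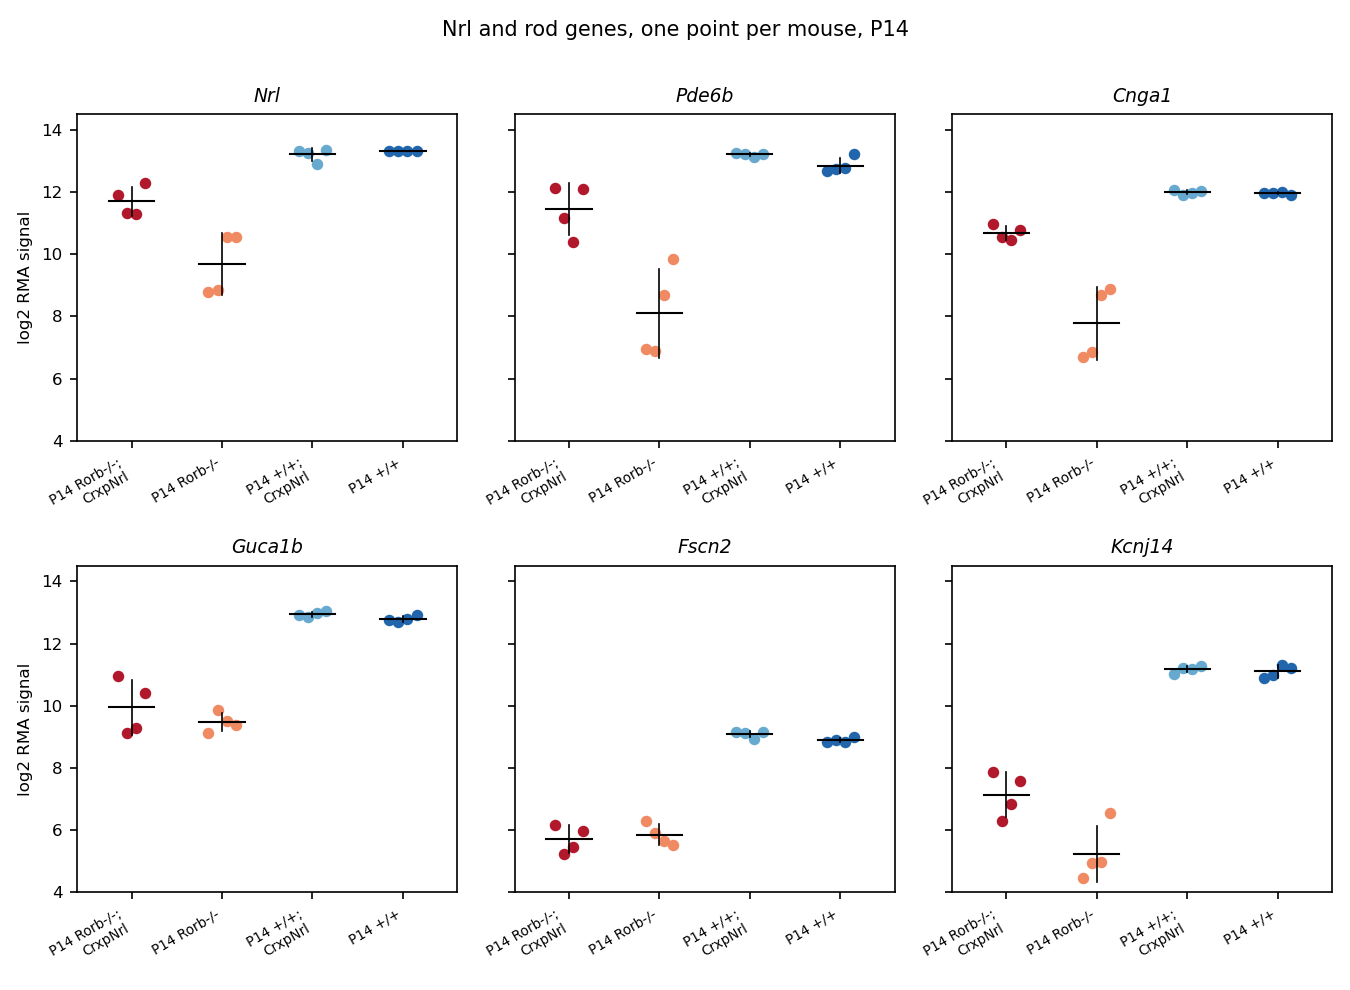
Log2 RMA signal (y axis) of Nrl and 5 photoreceptor genes in the 4 P14 genotypes, 1 point per mouse, with bars for the mean and vertical lines for ± 1 SD (n = 4). Nrl, Pde6b, Cnga1 and Kcnj14 sit between P14 Rorb-/- and P14 +/+ in P14 Rorb-/-;CrxpNrl retinas, whereas Guca1b and Fscn2 lie near their P14 Rorb-/- means.

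The promoters of 3 rod genes that gained with the transgene, and of the short-wavelength opsin gene that fell with it, show how binding motifs of the factors involved are laid out. Each window is the RefSeq sequence of GRCm38.p6 from 250 bases before to 50 bases after the gene's start, written 5′ to 3′ on the gene's strand. Capitals mark, on either strand, the CRX core TAATCC, the NRL half-site TGCTGA and the ROR half-site AGGTCA. Pde6b lies at chr5:108388123-108388422 (plus strand), Cnga1 at chr5:72642703-72643002 (minus), Cngb1 at chr8:95306536-95306835 (minus) and Opn1sw at chr6:29380464-29380763 (minus).
Pde6b: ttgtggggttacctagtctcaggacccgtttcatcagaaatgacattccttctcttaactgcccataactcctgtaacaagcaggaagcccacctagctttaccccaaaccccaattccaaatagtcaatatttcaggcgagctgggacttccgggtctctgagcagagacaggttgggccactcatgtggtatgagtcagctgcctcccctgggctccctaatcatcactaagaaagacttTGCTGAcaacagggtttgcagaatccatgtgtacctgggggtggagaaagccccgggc
Cnga1: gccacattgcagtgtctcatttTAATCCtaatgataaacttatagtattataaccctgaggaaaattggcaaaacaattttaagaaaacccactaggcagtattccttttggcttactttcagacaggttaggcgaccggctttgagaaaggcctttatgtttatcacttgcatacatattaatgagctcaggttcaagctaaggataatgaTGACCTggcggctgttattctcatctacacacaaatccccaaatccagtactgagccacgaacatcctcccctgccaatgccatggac
Cngb1: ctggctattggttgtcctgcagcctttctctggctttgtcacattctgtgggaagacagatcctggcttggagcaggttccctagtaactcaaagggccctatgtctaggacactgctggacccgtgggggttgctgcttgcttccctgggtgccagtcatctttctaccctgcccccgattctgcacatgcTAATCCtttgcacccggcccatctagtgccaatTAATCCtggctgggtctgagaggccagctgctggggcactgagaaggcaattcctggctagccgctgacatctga
Opn1sw: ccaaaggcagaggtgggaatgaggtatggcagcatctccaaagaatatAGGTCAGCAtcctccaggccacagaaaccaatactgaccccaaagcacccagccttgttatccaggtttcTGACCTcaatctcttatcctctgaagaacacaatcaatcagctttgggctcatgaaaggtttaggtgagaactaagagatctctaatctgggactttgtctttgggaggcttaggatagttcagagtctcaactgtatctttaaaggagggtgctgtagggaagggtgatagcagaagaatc
Pde6b held the NRL half-site 8 bases before the start. Cnga1 held a CRX core 228 bases before it and a ROR half-site, read on the other strand, 38 bases before it, and Cngb1 held CRX cores at 58 and 25 bases before it. Opn1sw held ROR half-sites at 202 and 132 bases before the start, the first of which overlaps a reverse NRL half-site at 199. Such short motifs are common, since 7.06% of all 32851 promoter windows of this length hold the CRX core, 19.5% the NRL half-site and 16.3% the ROR half-site. Of the 14 rod genes, 9 had a window, and 4 of those held the CRX core, 3 the NRL half-site and 3 the ROR half-site. Of the 14 cone genes, 10 had a window, and 2 of those held the CRX core, 1 the NRL half-site and 1 the ROR half-site. These matches are descriptions of the sequence, and binding was not measured.

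Cone genes split into 2 sets. Of 14 measured, 7 were called lower and 5 higher in P14 Rorb-/-;CrxpNrl than in P14 +/+ retinas, with a median difference of -0.53. Relative to P14 Rorb-/- retinas, where cone genes were high, 13 of the 14 were called lower. Opn1mw, the medium-wavelength cone opsin, read 5.14, 4.95, 3.92 and 4.27 in the P14 Rorb-/-;CrxpNrl retinas, against 11.19, 10.90, 11.15 and 11.08 in the P14 +/+ retinas. The difference was -6.51 ± 0.25 (adjusted p = 1.68e-17), and it may be understated, since the values with the transgene lie near 4.009, the lower quartile of all signals. Opn1sw, the short-wavelength opsin, read 7.91, 8.59, 8.19 and 7.001 in the P14 Rorb-/-;CrxpNrl retinas, against 11.42, 11.67, 11.64 and 11.76 in the P14 +/+ retinas. It fell by 3.70 ± 0.56 on the log2 scale (adjusted p = 6.12e-06), 13.0-fold, and stood -5.53 ± 0.56 from P14 Rorb-/- retinas, whose mean was 13.45.

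Other cone genes that were lower encode phototransduction proteins. Pde6h, the inhibitory subunit of the cone phosphodiesterase, differed by -2.11 ± 0.49 (adjusted p = 0.00119), Pde6c, its catalytic subunit, by -2.02 ± 0.27 (adjusted p = 8.74e-07), and Gnat2, cone transducin alpha, by -1.65 ± 0.19 (adjusted p = 1.03e-07). Kcne2, a potassium channel subunit, differed by -1.23 ± 0.10 and Ccdc136 by -0.44 ± 0.09. The genes that were higher than in wild type were led by Otop3, a proton channel of the otopetrin family, which read 9.73, 9.99, 9.82 and 9.57 in the P14 Rorb-/-;CrxpNrl retinas, against 6.63, 6.77, 6.67 and 7.05 in the P14 +/+ retinas. Its difference was 2.998 ± 0.31 (adjusted p = 1.21e-08), 7.99-fold higher, and it was not called against P14 Rorb-/- retinas (-0.70 ± 0.31, adjusted p = 0.237). Cngb3, a cone channel subunit, was 1.77 ± 0.22 higher (adjusted p = 3.54e-07), Gngt2 0.88 ± 0.21 higher (adjusted p = 0.00199) and Gnb3 0.60 ± 0.08 higher (adjusted p = 4.05e-07). The last pair encode the gamma and beta subunits that partner cone transducin. Pygm, muscle glycogen phosphorylase, was the remaining higher gene at 0.41 ± 0.13 (adjusted p = 0.014, and 0.07 without P14 +/+ replicate 1). Arr3, cone arrestin, and Slc24a2, the cone exchanger, were not called (-0.62 ± 0.43 and -0.19 ± 0.23), although both were lower than in P14 Rorb-/- retinas (-3.13 ± 0.43 and -0.88 ± 0.23, adjusted p = 1.09e-05 and 0.0178). The call of Slc24a2 against P14 Rorb-/- was lost in 4 of the 8 fits that left out 1 mouse (adjusted p up to 0.116).

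Cone opsin signal was also low in retinas that carried the transgene with both Rorb alleles. In P14 +/+;CrxpNrl retinas the mean was 5.10 for Opn1mw, 5.97 for Opn1sw, 5.68 for Pde6h and 5.35 for Otop3, and none of these was tested here. Replicates 1 to 4 of that group read 6.47, 7.70, 6.55 and 6.46 for the mean of the cone list, so replicate 2 may raise these means. Cngb3 and Otop3 averaged 9.66 and 9.78 in the P14 Rorb-/-;CrxpNrl retinas, above their means of 6.56 and 5.35 in P14 +/+;CrxpNrl and of 7.88 and 6.78 in P14 +/+ retinas.

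**Figure D2:**
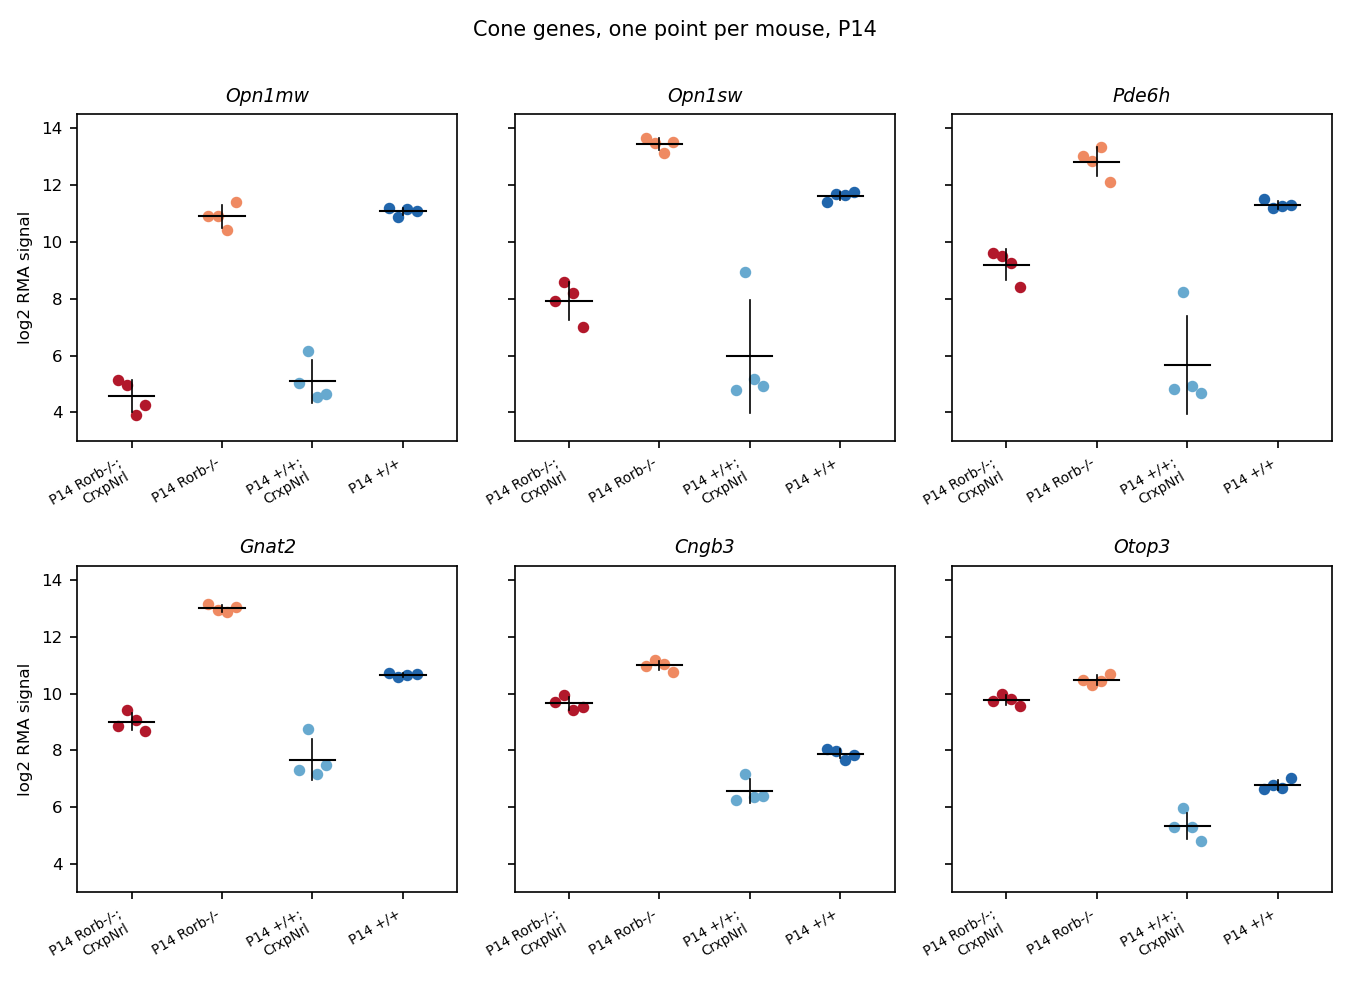
Log2 RMA signal (y axis) of 6 cone genes in the 4 P14 genotypes, 1 point per mouse, with bars for the mean and vertical lines for ± 1 SD (n = 4). Opn1mw, Opn1sw, Pde6h and Gnat2 lie below P14 +/+ in every P14 Rorb-/-;CrxpNrl retina, and Cngb3 and Otop3 lie above it.

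Genes of the outer segment, the stacked-disc compartment that holds the phototransduction proteins, were unevenly affected. Of 10 measured, 5 were called lower and 1 higher in P14 Rorb-/-;CrxpNrl than in P14 +/+ retinas, with a median of -0.92, and the count of lower genes was 3 without P14 +/+ replicate 1 or without P14 Rorb-/-;CrxpNrl replicate 2 or 3. Fscn2, an actin-bundling protein of photoreceptors, read 6.17, 5.22, 5.47 and 5.99 in the P14 Rorb-/-;CrxpNrl retinas, against 8.84, 8.89, 8.85 and 9.01 in the P14 +/+ retinas. Its difference of -3.18 ± 0.22 (adjusted p = 3.27e-12) is 9.09-fold, and it was not called against P14 Rorb-/- (-0.14 ± 0.22, adjusted p = 0.824). Abca4, the retinoid flippase of the disc rim, was likewise low by -0.97 ± 0.25 (adjusted p = 0.0037), with a difference of 0.03 ± 0.25 from P14 Rorb-/-. Impg1, a proteoglycan of the matrix between photoreceptors, was -1.25 ± 0.47 from wild type (adjusted p = 0.0436) and 2.53 ± 0.47 above P14 Rorb-/- (adjusted p = 0.000589). The call against wild type was lost whichever of the 8 mice was left out (adjusted p 0.065 to 0.0911). Mfge8, a secreted glycoprotein, was the one higher gene, by 0.68 ± 0.09 (adjusted p = 1.55e-06). That count, 1 of 10, lies below the 16.7% of all genes called higher.

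Prph2, the tetraspanin of disc rims, read 7.76, 5.12, 5.34 and 4.47 in the P14 Rorb-/-;CrxpNrl retinas, against 7.32, 12.496, 12.61 and 12.71 in the P14 +/+ retinas. The groups overlapped because 1 wild-type retina read 7.32, and the fitted difference of -5.61 ± 1.29 (adjusted p = 0.00112) carries that spread. Without that retina the difference was -6.93 (adjusted p = 8.69e-05). The mean of this gene's single probe set was 6.604 in P14 +/+;CrxpNrl and 7.79 in P28 +/+ retinas, so it was also low in samples with both Rorb alleles.

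Of 10 measured genes for ending the light response, for guanylate cyclase and for protein transport, shared by rods and cones, 6 were called lower and none higher, with a median of -0.47. Reep6, which acts in vesicle traffic of rods, read 10.95, 10.12, 10.20 and 11.23 in the P14 Rorb-/-;CrxpNrl retinas, against 12.26, 12.32, 12.66 and 12.66 in the P14 +/+ retinas. It was low by -1.85 ± 0.29 (adjusted p = 1.21e-05) and 1.96 ± 0.29 above P14 Rorb-/- (adjusted p = 3.36e-05). Rgs9bp, the membrane anchor of the GTPase-accelerating complex, differed by -0.98 ± 0.27 (adjusted p = 0.00599), and Unc119, a lipid-binding transport factor, by -0.48 ± 0.12 (adjusted p = 0.00317). Of 6 photoreceptor channels and pumps 2 were lower and none higher, Slc24a1 and Kcnj14, an inward-rectifier potassium channel. Kcnj14 read 7.86, 6.30, 6.85 and 7.58 in the P14 Rorb-/-;CrxpNrl retinas, against 10.89, 11.001, 11.32 and 11.22 in the P14 +/+ retinas, a difference of -3.96 ± 0.39 (adjusted p = 5.28e-09), although it had gained 1.92 ± 0.39 over P14 Rorb-/- (adjusted p = 0.00199).

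At the ribbon synapse, through which photoreceptors signal, 11 of 22 genes were called lower and 2 higher, with a median of -0.33. The higher count was 1 without P14 +/+ replicate 2 or 4 and with the mean of all probe sets. Rims1, an active-zone scaffold, read 7.67, 7.95, 7.92 and 7.98 in the P14 Rorb-/-;CrxpNrl retinas, against 10.38, 10.29, 10.17 and 10.12 in the P14 +/+ retinas. Its difference was -2.36 ± 0.12 (adjusted p = 6.45e-15), with 0.14 ± 0.12 relative to P14 Rorb-/-. Cabp4, a calcium sensor of photoreceptor calcium channels, was -1.496 ± 0.28 (adjusted p = 0.000133) and 0.40 ± 0.28 relative to P14 Rorb-/-, the last not called. Ctbp2, whose locus also encodes the ribbon protein RIBEYE, was not called (-0.06 ± 0.09). Of 22 genes of the photoreceptor cilium 8 were lower and 1 higher, among the lower ones Rab28 (-0.78 ± 0.06, adjusted p = 1.48e-10) and Arl3 (-0.55 ± 0.07, adjusted p = 9.02e-07), small GTPases of ciliary traffic. The 1 higher call was lost without P14 Rorb-/-;CrxpNrl replicate 2, 3 or 4, without P14 +/+ replicate 3 or 4, with arrays shifted to the same median and when the fit held only the compared arrays. Rdh12, a retinol dehydrogenase of photoreceptors, was -1.46 ± 0.29 (adjusted p = 0.00027), while Rdh10, a retinol dehydrogenase of glia and pigment epithelium, was 0.74 ± 0.11 higher (adjusted p = 5.97e-06).

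Of 17 measured transcription factors of photoreceptors, 8 were called lower and 2 higher, with a median of -0.35. Over all genes 13.3% were called lower and 16.7% higher, so only the lower count exceeds its share. Esrrb, an orphan nuclear receptor expressed in rods, read 8.58, 7.41, 7.84 and 8.40 in the P14 Rorb-/-;CrxpNrl retinas, against 9.50, 10.14, 10.47 and 10.38 in the P14 +/+ retinas. It was low by -2.06 ± 0.40 (adjusted p = 0.000199) yet 2.34 ± 0.40 above P14 Rorb-/- (adjusted p = 0.000262). Mef2c, a MADS-box factor, read 6.56, 6.41, 6.01 and 5.47 in the P14 Rorb-/-;CrxpNrl retinas, against 7.87, 8.18, 8.09 and 7.56 in the P14 +/+ retinas. It was low by -1.81 ± 0.33 (adjusted p = 8.59e-05) and was not called against P14 Rorb-/- (-0.02 ± 0.33). Rxrg, a retinoid receptor of cones, was 1.24 ± 0.13 higher than in wild type (adjusted p = 1.57e-08), although lower than in P14 Rorb-/- retinas (-0.94 ± 0.13, adjusted p = 1.18e-05). Otx2, which acts upstream of Crx, was 0.49 ± 0.09 higher (adjusted p = 0.0001). Crx itself was not called at -0.30 ± 0.16 (adjusted p = 0.184), with the samples of both groups apart, and it was called when only the 8 compared arrays entered the fit (adjusted p = 0.0039) or with array weights (adjusted p = 0.0428).

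The gene lists with the highest shares of lower genes lay outside the photoreceptors. Amacrine genes were called lower for 23 of 28 members and higher for 2, with a median of -0.99, and 1 of the 28 was called against P14 Rorb-/- retinas. Horizontal cell genes were called lower for 6 of 8 members and higher for 1, with a median of -1.04. Without the dimmest 40% of genes, a filter that also takes dim members out of the list, 2 were lower. None of the 8 was called against P14 Rorb-/-. Over all genes 2.05% were called higher and 3.25% lower against P14 Rorb-/-, so the counts of both lists lie near those shares. Gad1, which makes the transmitter GABA, read 5.56, 5.42, 5.31 and 5.94 in the P14 Rorb-/-;CrxpNrl retinas, against 11.34, 11.35, 11.40 and 11.26 in the P14 +/+ retinas. Its difference was -5.78 ± 0.29 (adjusted p = 5.67e-15), 54.9-fold, and it was not called against P14 Rorb-/- (0.49 ± 0.29, adjusted p = 0.422). Gad2, the gene of the second GABA-making enzyme, was by contrast 0.25 ± 0.10 higher at an adjusted p of 0.0492, a call lost whichever mouse was left out (adjusted p 0.0558 to 0.148).

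Tfap2b, Tfap2c and Tfap2a, AP-2 transcription factors of amacrine cells, differed by -4.40 ± 0.14, -4.00 ± 0.13 and -3.87 ± 0.13 (adjusted p = 2.83e-19, 2.44e-19 and 4.45e-19). The Tfap2b values were 6.31, 6.71, 6.32 and 6.38 in the P14 Rorb-/-;CrxpNrl retinas, against 10.83, 10.70, 11.05 and 10.72 in the P14 +/+ retinas. Another Tfap2c probe set, without shared sequence, put that gene's difference at -2.09, and the mean of its probe sets at -2.62. Its mean of 3.81 in P14 Rorb-/-;CrxpNrl retinas lies below the lower quartile of 4.009, so the difference may be understated. Slc32a1, the vesicular GABA and glycine transporter, was -1.70 ± 0.13 (adjusted p = 1.43e-11), a size that fell to -0.45 when all its probe sets were averaged. Tac2, a tachykinin, ended at 3.57, 3.93, 4.19 and 4.13 in the P14 Rorb-/-;CrxpNrl retinas, against 8.19, 8.03, 7.69 and 7.94 in the P14 +/+ retinas, so that its -4.01 ± 0.14 (adjusted p = 2.93e-18) may be understated in the same way. Sst, the neuropeptide somatostatin, ran the other way with 9.08, 8.86, 8.44 and 8.86 in the P14 Rorb-/-;CrxpNrl retinas, against 6.08, 5.80, 6.15 and 5.32 in the P14 +/+ retinas. It was 2.98 ± 0.22 higher (adjusted p = 1.28e-11), 7.87-fold.

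Calb1, calbindin of horizontal cells and some amacrine cells, read 8.26, 7.38, 7.62 and 7.93 in the P14 Rorb-/-;CrxpNrl retinas, against 10.79, 10.62, 10.54 and 10.65 in the P14 +/+ retinas, a difference of -2.85 ± 0.15 (adjusted p = 1.84e-14). Lhx1, which marks horizontal cells, was -1.89 ± 0.17 (adjusted p = 1.32e-09), Onecut1, another horizontal cell factor, -1.30 ± 0.25 (adjusted p = 0.000129, and -0.79 as the mean of its probe sets) and Gja10, a gap-junction protein of horizontal cells, -1.01 ± 0.11 (adjusted p = 4.97e-08). Prox1, which bipolar and some amacrine cells also express, was the higher member at 0.45 ± 0.15 (adjusted p = 0.0208). That call was lost without any of P14 +/+ replicates 1 and 2 and P14 Rorb-/-;CrxpNrl replicates 2 and 3 (adjusted p up to 0.0593).

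Bipolar cells, which carry photoreceptor signals inward, showed the opposite tendency, with 13 of 23 genes called higher, 3 lower and a median of 0.33. Irx5, a transcription factor of some cone bipolar cells, was 1.44 ± 0.14 higher (adjusted p = 3.6e-09), Lhx4, a LIM-domain factor of bipolar cells, 0.99 ± 0.11 (adjusted p = 2.48e-08) and Vsx1, a factor of cone bipolar cells, 0.95 ± 0.13 (adjusted p = 1.6e-06). Gng13, the G-protein gamma subunit of ON bipolar cells, was lower, at 9.67, 8.62, 8.85 and 8.98 in the P14 Rorb-/-;CrxpNrl retinas, against 10.26, 10.02, 10.06 and 9.99 in the P14 +/+ retinas (-1.05 ± 0.14, adjusted p = 8.51e-07, and -0.51 as the mean of its probe sets). Trpm1, the cation channel of ON bipolar cells, was not called (-0.07 ± 0.20). Ganglion cell genes, those of the retina's output neurons, were called higher for 4 of 19 members and lower for 4, near the shares of 16.7% and 13.3% over all genes, with a median of -0.33. In a fit of the compared arrays alone 8 were lower. Nefh, the heavy neurofilament, was -1.04 ± 0.19 (adjusted p = 6.53e-05), Thy1, a surface glycoprotein of ganglion cells, -0.86 ± 0.22 (adjusted p = 0.00274), and Gap43, a growth-cone protein, 1.16 ± 0.13 (adjusted p = 5.24e-08).

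**Figure D3:**
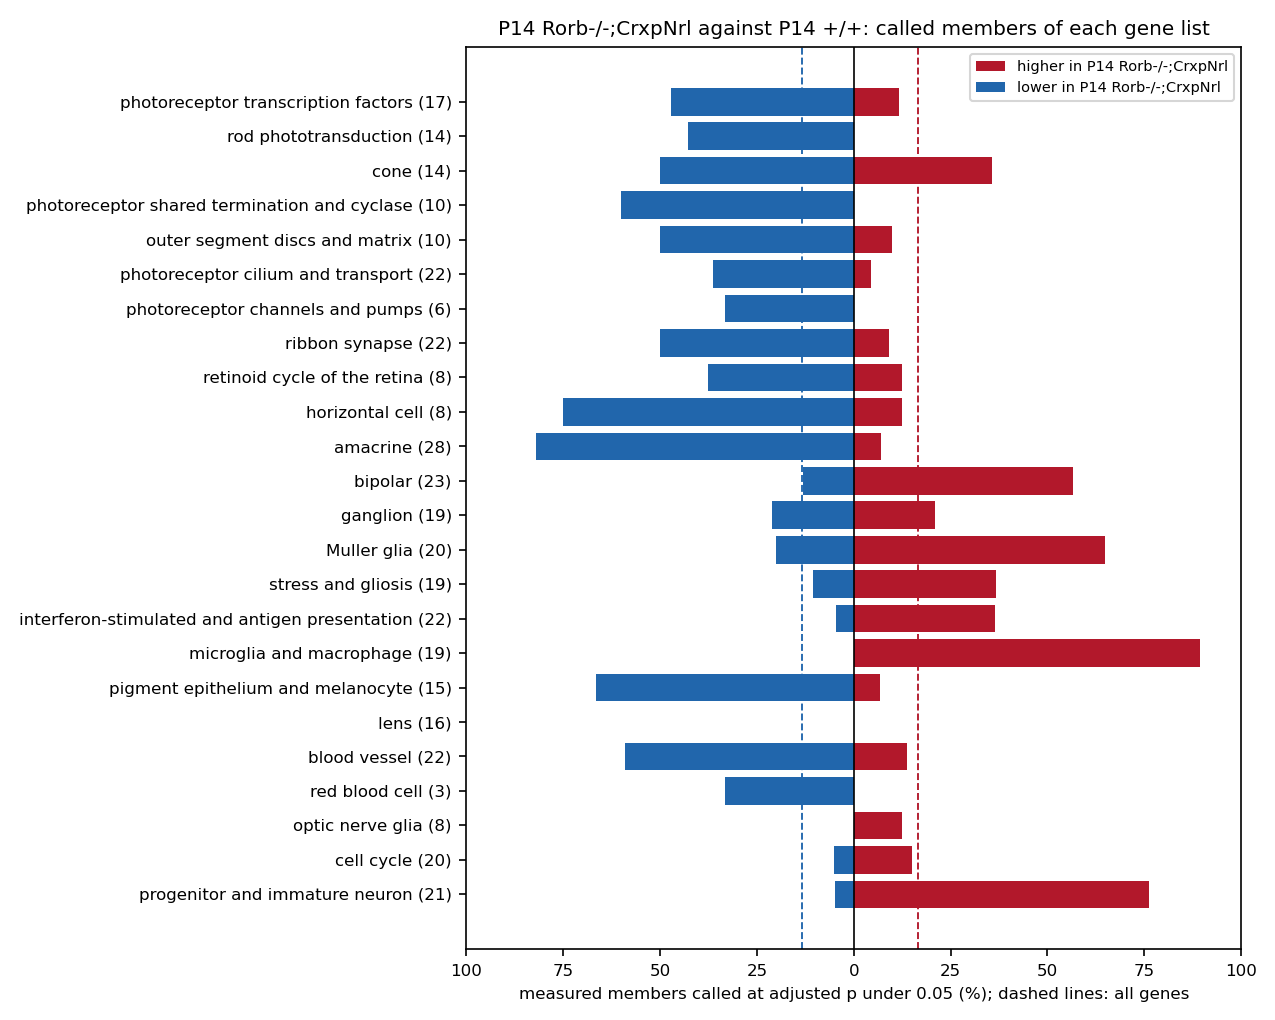
Share of the measured members of each gene list (list size in parentheses) called lower (left) or higher (right) in P14 Rorb-/-;CrxpNrl than in P14 +/+ retinas, at adjusted p under 0.05. Dashed lines mark the shares over all genes, 13.3% lower and 16.7% higher. Amacrine, horizontal cell and pigment epithelium lists lie furthest to the left and the microglia and immature neuron lists furthest to the right.

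Müller glia, the radial glia of the retina, had 13 of 20 genes called higher and 4 lower, with a median of 0.66. Apoe, the lipid carrier, read 13.48, 13.39, 13.57 and 13.47 in the P14 Rorb-/-;CrxpNrl retinas, against 11.81, 11.44, 11.64 and 11.76 in the P14 +/+ retinas, 1.82 ± 0.07 higher (adjusted p = 2.99e-18) with a difference of -0.01 ± 0.07 from P14 Rorb-/-. Nfib and Nfix, nuclear factor I proteins, were 1.49 ± 0.11 and 1.41 ± 0.12 higher (adjusted p = 1.28e-11 and 2.43e-10), and Slc1a3, the glial glutamate transporter, 1.42 ± 0.19 (adjusted p = 1.37e-06). Car14, a membrane carbonic anhydrase, went the other way, with 8.47, 6.24, 6.95 and 7.92 in the P14 Rorb-/-;CrxpNrl retinas, against 9.93, 9.84, 9.96 and 9.94 in the P14 +/+ retinas (-2.52 ± 0.26, adjusted p = 8.49e-09). Glul, of the same list, was also lower, at -0.38, with its other probe set at -0.54. That call held whichever mouse was left out (adjusted p up to 0.0419). Rlbp1, the retinaldehyde-binding protein of Müller glia, was not called (0.01 ± 0.08).

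Microglia and macrophage genes were called higher for 17 of 19 members and lower for none, with a median of 1.03. The complement genes C1qa, C1qb and C1qc were 1.73 ± 0.13, 1.41 ± 0.21 and 1.79 ± 0.16 higher (adjusted p = 1.26e-11, 4.15e-06 and 1.03e-09). C1qa read 8.32, 8.76, 8.75 and 8.35 in the P14 Rorb-/-;CrxpNrl retinas, against 7.01, 6.84, 6.77 and 6.65 in the P14 +/+ retinas. Lyz2, a lysozyme of macrophages, was 2.34 ± 0.22 higher (adjusted p = 1.49e-09). Its neighbour Lyz1 had one of the largest rises, 3.08 ± 0.25 (adjusted p = 8.63e-11), but only through probe sets that match sequence shared with other genes: the probe set without shared sequence gave -0.05 (adjusted p = 0.759), so the signals of Lyz2 and Lyz1 cannot be told apart.

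Genes of glial stress had 7 of 19 members called higher and 2 lower, with a median of 0.27. Over all genes 16.7% were called higher and 13.3% lower, so only the higher count exceeds its share. Ednrb, the endothelin B receptor, was 1.85 ± 0.22 higher (adjusted p = 1.73e-07), Cebpd, an acute-phase transcription factor, 1.48 ± 0.16 (adjusted p = 1.98e-08, and 0.86 as the mean of its probe sets), and Cp, ceruloplasmin, 1.36 ± 0.09 (adjusted p = 4.07e-12). Gfap, the intermediate filament that reactive glia make, read 7.57, 7.72, 7.40 and 7.89 in the P14 Rorb-/-;CrxpNrl retinas, against 6.33, 6.59, 6.39 and 6.64 in the P14 +/+ retinas (1.16 ± 0.23, adjusted p = 0.000247). Osmr, the oncostatin M receptor, was -1.74 ± 0.22 (adjusted p = 2.57e-07, and -0.63 as the mean of its probe sets). The count of lower members was 1 when the dimmest 40% of genes were left out. Interferon-stimulated and antigen-presentation genes were called higher for 8 of 22 members and lower for 1, with a median of 0.50. The 1 lower call was lost without P14 Rorb-/-;CrxpNrl replicate 1, 2 or 4, without P14 +/+ replicate 1 or 3, when the fit held only the compared arrays, and without the dimmest 40% of genes. Oasl2, an interferon-induced gene of the oligoadenylate synthase family, read 7.31, 9.02, 7.72 and 7.35 in the P14 Rorb-/-;CrxpNrl retinas, against 4.98, 5.15, 5.06 and 5.92 in the P14 +/+ retinas (2.57 ± 0.38, adjusted p = 3.73e-06). Its highest value was that of P14 Rorb-/-;CrxpNrl replicate 2, which was also the highest of its group for B2m, the light chain of class I molecules (1.10 ± 0.27 higher, adjusted p = 0.00208), and for Ifit1. Ifit1 read 4.27, 5.59, 4.24 and 3.60 in the P14 Rorb-/-;CrxpNrl retinas, against 3.71, 4.03, 4.29 and 4.16 in the P14 +/+ retinas, and was not called.

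Genes of progenitors and immature neurons were called higher for 16 of 21 members and lower for 1, with a median of 0.70. Sfrp2, a secreted Wnt modulator, read 7.08, 7.52, 7.38 and 6.93 in the P14 Rorb-/-;CrxpNrl retinas, against 5.06, 5.13, 5.13 and 4.91 in the P14 +/+ retinas (2.17 ± 0.23, adjusted p = 1.31e-08). Sox11 and Sox4, transcription factors of young neurons, were 2.07 ± 0.48 and 1.40 ± 0.14 higher (adjusted p = 0.00112 and 5.58e-09), Notch1 1.67 ± 0.13 (adjusted p = 5.66e-11), Lhx2 1.14 ± 0.09 (adjusted p = 9.74e-11) and Dcx, doublecortin, 1.06 ± 0.18 (adjusted p = 2.19e-05). Lhx2 and Notch1 are also expressed by Müller glia. Of 20 cell cycle genes 3 were called higher and 1 lower, with a median of 0.15. Both counts lie below the shares of 16.7% and 13.3% over all genes. With the mean of all probe sets 5 were higher and 3 lower. Mki67 and Top2a, made by dividing cells, had differences of 0.25 ± 0.12 and 0.22 ± 0.16, neither called.

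Markers of neighbouring tissues also differed. Pigment epithelium and melanocyte genes were called lower for 10 of 15 members and higher for 1, with a median of -1.35. Their mean level per array ran from 6.04 to 6.63 in the P14 Rorb-/-;CrxpNrl retinas, against 7.36 to 7.68 in the P14 +/+ retinas. Rpe65, the visual-cycle isomerase of the pigment epithelium, read 5.38, 4.98, 4.76 and 4.96 in the P14 Rorb-/-;CrxpNrl retinas, against 8.08, 8.43, 8.08 and 8.22 in the P14 +/+ retinas (-3.18 ± 0.44, adjusted p = 1.73e-06). Rgr, Ttr and Dct, also made by pigment epithelium, were -3.33 ± 0.52, -2.52 ± 0.51 and -1.72 ± 0.36 (adjusted p = 1.01e-05, 0.000309 and 0.000408). The part that attached pigment epithelium has in genes which it shares with the retina, such as Rdh10, was not tested. Blood vessel genes were called lower for 13 of 22 members and higher for 3, with a median of -1.02. Without the dimmest 40% of genes, a filter that also takes dim members out of the list, 7 were lower. The mean level of that list per array was 6.95 to 7.15 in the P14 Rorb-/-;CrxpNrl retinas, against 7.55 to 7.66 in the P14 +/+ retinas. Rgs5, of pericytes, was -1.76 ± 0.14 (adjusted p = 5.43e-11) and Cldn5, an endothelial tight-junction protein, -1.63 ± 0.17 (adjusted p = 2.08e-08), whereas Itm2a was 2.07 ± 0.11 higher (adjusted p = 3.38e-14).

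Lens genes varied widely between mice. None of 16 was called, although their median difference was 1.11. Cryaa, a lens crystallin, read 10.18, 7.07, 8.63 and 13.16 in the P14 Rorb-/-;CrxpNrl retinas, against 8.07, 9.21, 8.56 and 8.85 in the P14 +/+ retinas, and P14 Rorb-/-;CrxpNrl replicate 4 stood highest. Without that mouse 806 genes passed the 2-fold rule, against 787 with it. Of 3 red blood cell genes 1 was lower, and of 8 genes of optic nerve glia 1 was higher, where 13.3% of all genes were lower and 16.7% higher. That glial gene was Mbp, myelin basic protein, higher by 0.52 ± 0.11 (adjusted p = 0.000293), a call lost in the mean of its probe sets (0.08, adjusted p = 0.806) and without shared-sequence probe sets (0.07, adjusted p = 0.912).

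Ranked over all genes whose samples did not overlap, the deepest fall was that of Nt5e, the ecto-5′-nucleotidase that marks rod precursors on their surface. It read 4.17, 4.36, 3.76 and 3.71 in the P14 Rorb-/-;CrxpNrl retinas, against 10.39, 10.65, 10.56 and 10.59 in the P14 +/+ retinas. At -6.54 ± 0.16 (adjusted p = 3.87e-22, and -3.10 as the mean of its probe sets) its difference may be understated, and it was not called against P14 Rorb-/- (-0.20 ± 0.16, adjusted p = 0.582). Opn1mw, Gad1, Tfap2b, C1ql2, Tac2, Tfap2c, Plpp2, Kcnj14, Tfap2a, Opn1sw, Lamp5, Sh2d1a, Pdzph1 and Rgr made up the rest of the 15 deepest falls, from -6.51 to -3.33. C1ql2, a complement-related synaptic protein, was -4.03 ± 0.15, Plpp2, a lipid phosphatase, -3.97 ± 0.19 (-1.90 as the mean of its probe sets), and Lamp5, a membrane protein of inhibitory neurons, -3.49 ± 0.15. Of the 15, 3 were called against P14 Rorb-/-, where 2.05% of all genes were called higher and 3.25% lower. Opn1mw and Opn1sw were lower with the transgene and Kcnj14 was higher. The 15 were picked by values of the same P14 Rorb-/-;CrxpNrl samples.

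Among the 15 largest rises, Cxcr4, the receptor of the chemokine CXCL12, came first, with 7.53, 8.22, 8.06 and 7.96 in the P14 Rorb-/-;CrxpNrl retinas, against 4.42, 4.71, 4.89 and 4.98 in the P14 +/+ retinas (3.19 ± 0.16, adjusted p = 3.26e-15). Myocd, a coactivator of smooth-muscle genes, was 3.18 ± 0.26 higher (adjusted p = 1.24e-10), Zic5, a zinc-finger factor, 2.95 ± 0.21 (adjusted p = 5.65e-12), and Txnip, an inhibitor of thioredoxin, 2.94 ± 0.18 (adjusted p = 4.69e-13). Fmod and Prelp, small leucine-rich proteoglycans of extracellular matrix, were 2.98 ± 0.51 and 2.79 ± 0.13 higher, Fmod by 1.77 as the mean of its probe sets. Gpc3 (a glypican), Apoc1 (an apolipoprotein), Myb (a transcription factor), Bmper (a BMP-binding protein), Chl1 (a neural adhesion molecule) and Irs4 (an insulin receptor substrate) were higher by 2.69 to 2.93. With all probe sets averaged, Chl1 and Irs4 were higher by 1.25 and 1.504. Lyz1, Otop3 and Sst, described above, complete the 15. Of the 15, Myb (0.57 ± 0.15, adjusted p = 0.0178) and Lyz1 (0.86 ± 0.25, adjusted p = 0.035) were called against P14 Rorb-/- retinas. Each of these calls was lost in 5 of the 8 fits that left out 1 mouse (adjusted p up to 0.0752 for Myb and 0.192 for Lyz1).

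More genes separated the same pair of genotypes at P28, in other mice. In P28 Rorb-/-;CrxpNrl against P28 +/+ retinas 3834 genes (21.1%) were called higher and 3430 (18.9%) lower, and 1316 passed the 2-fold rule. Of the 787 genes past that rule at P14, 511 (64.9%) passed it in the same direction at P28, which is 38.8% of the P28 genes, and 8 passed it in the opposite direction. The difference between ages was itself called for 1610 genes (8.85%) that moved up at P28 relative to P14 and for 1213 (6.67%) that moved down.

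Rod genes were called lower at P28 for 13 of 14 members, with a median of -2.02, and the difference between ages was called for 3 of the 14, all down. Those calls, for Cngb1, Pdc and Gngt1, were lost in 13, 14 and 12 of the 16 fits that left out 1 mouse. Pde6b, Cnga1 and Slc24a1 differed at P28 by -2.43, -2.45 and -2.42, and none of these was called as different from P14. The spread at P28 was wide, the mean level of the rod list per array running from 9.42 to 11.74 in the P28 Rorb-/-;CrxpNrl retinas, against 12.49 to 12.64 in the P28 +/+ retinas. P28 Rorb-/-;CrxpNrl replicates 1 to 4 read 11.74, 11.29, 9.42 and 10.16 for that list. For the outer segment list, which holds Fscn2, the same mice read 10.10, 9.68, 8.05 and 8.53. For the transcription factor list, which holds Crx, they read 8.93, 8.69, 7.69 and 7.95. What set replicates 3 and 4 apart was not tested. Crx, not called at P14, was -1.35 at P28 (adjusted p = 9.2e-08), a difference between ages of -1.05 (adjusted p = 0.0024). Fscn2 deepened to -4.64, by -1.46 (adjusted p = 0.0018), and Cabp4 to -2.88, by -1.39 (adjusted p = 0.018). Rims1, of the same ribbon synapse list as Cabp4, moved the other way, to -1.34 at P28, a change of 1.02 (adjusted p = 0.00018). In that list the change was upward for 2 of 22 genes and downward for 1, near the shares of 8.85% and 6.67% over all genes. Otop3 lost its rise, with 0.45 at P28 (adjusted p = 0.27) and a change of -2.54 (adjusted p = 0.00027), and Myocd went to 0.70 with a change of -2.48 (adjusted p = 5.9e-05).

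Of the inner retinal genes described above, several that were lower at P14 had a called change upward, among them Calb1 and Lhx1. Calb1 was -1.26 at P28, a change of 1.58 (adjusted p = 1.8e-05) and Lhx1 -0.94, a change of 0.96 (adjusted p = 0.0087). Slc32a1, Gng13, Nefh and Thy1 changed by 0.84, 1.12, 1.21 and 1.08, each called. Nefh and Thy1 belong to the ganglion list, whose mean level was 8.43, 8.60, 9.24 and 9.13 in P28 Rorb-/-;CrxpNrl replicates 1 to 4. It was thus highest in replicates 3 and 4, the mice with the lowest level of the rod list. In the amacrine list the called change was upward for 7 of 28 genes and downward for none, where 8.85% of all genes moved up. Gad1, Tfap2a, Tfap2b and Tac2 remained at -4.75, -3.83, -3.83 and -3.88 with no called change. Pigment epithelium genes turned, 7 of 15 being called higher and 1 lower at P28, with a called change upward for 10 of the 15. Dct was 2.32 higher at P28, a change of 4.04 (adjusted p = 6.8e-06), while Rpe65 was -0.30 at P28, a change of 2.88 (adjusted p = 0.0022). The mean level of that list per array was 6.77 to 7.68 in P28 Rorb-/-;CrxpNrl retinas, against 6.08 to 7.07 in P28 +/+ retinas. Interferon-stimulated genes were called higher for 18 of 22 at P28, with a median of 1.79, and 13 of the 22 had a called change upward. Ifit1 was 4.18 higher at P28, a change of 3.80 (adjusted p = 0.00098), and B2m 3.04 higher, a change of 1.94 (adjusted p = 0.00097). Osmr turned to 1.24 at P28, a change of 2.98 (adjusted p = 8.7e-07), and Gfap reached 2.35, a change of 1.19 (adjusted p = 0.013).

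**Figure D4:**
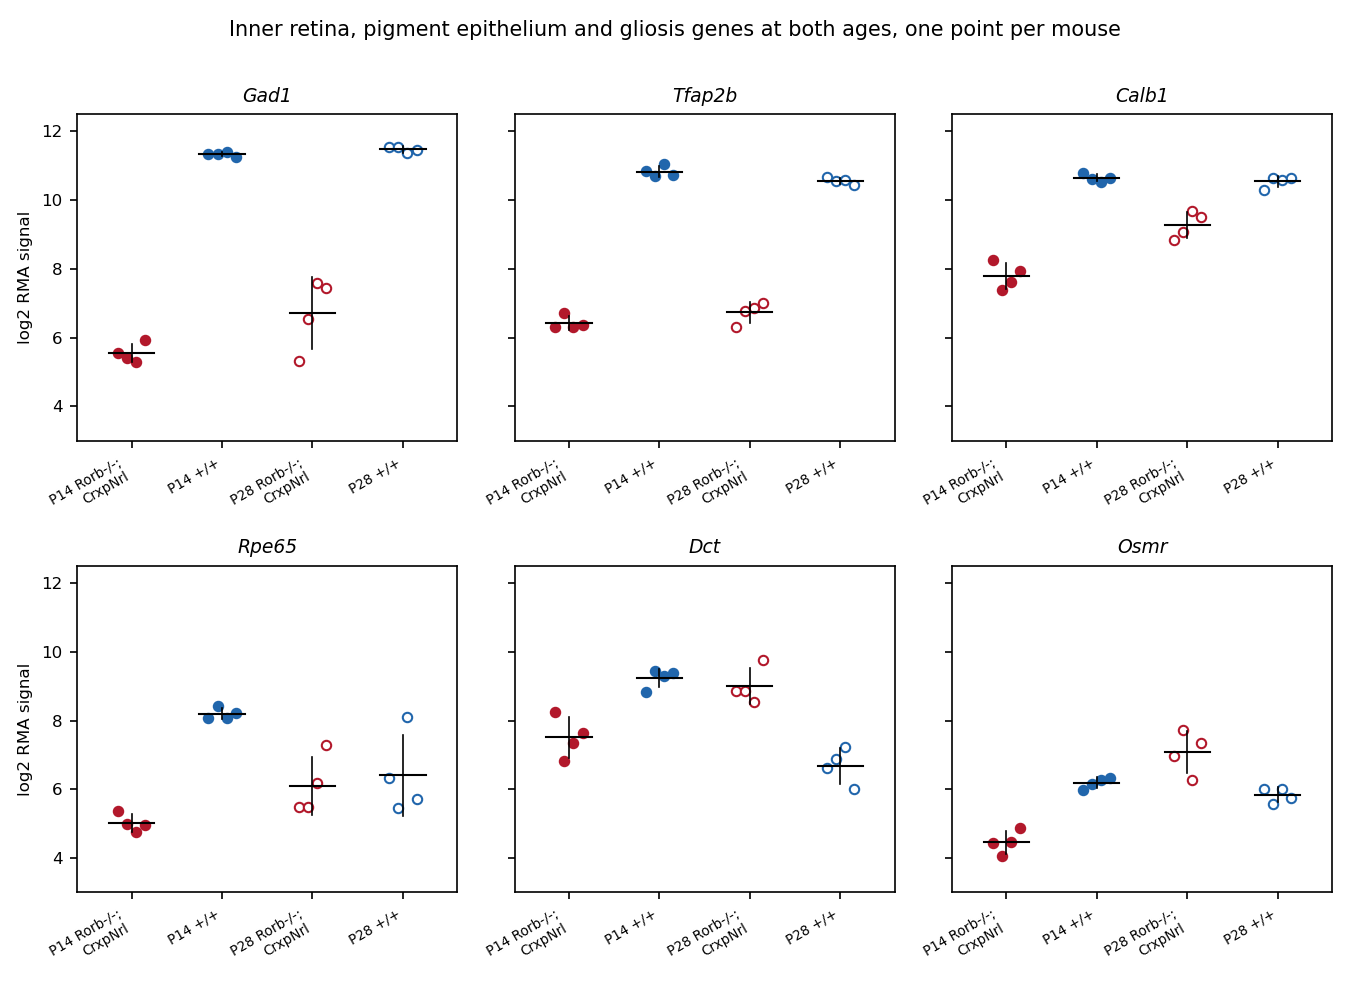
Log2 RMA signal (y axis) of 6 genes in P14 (filled) and P28 (open) Rorb-/-;CrxpNrl and +/+ retinas, 1 point per mouse, with bars for the mean and vertical lines for ± 1 SD (n = 4). Gad1 and Tfap2b stay low at both ages in Rorb-/-;CrxpNrl retinas, Calb1 comes closer to +/+ at P28, and Rpe65, Dct and Osmr lie below +/+ in every Rorb-/-;CrxpNrl retina at P14, whereas at P28 Dct and Osmr lie above it and Rpe65 overlaps.

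**Figure D5:**
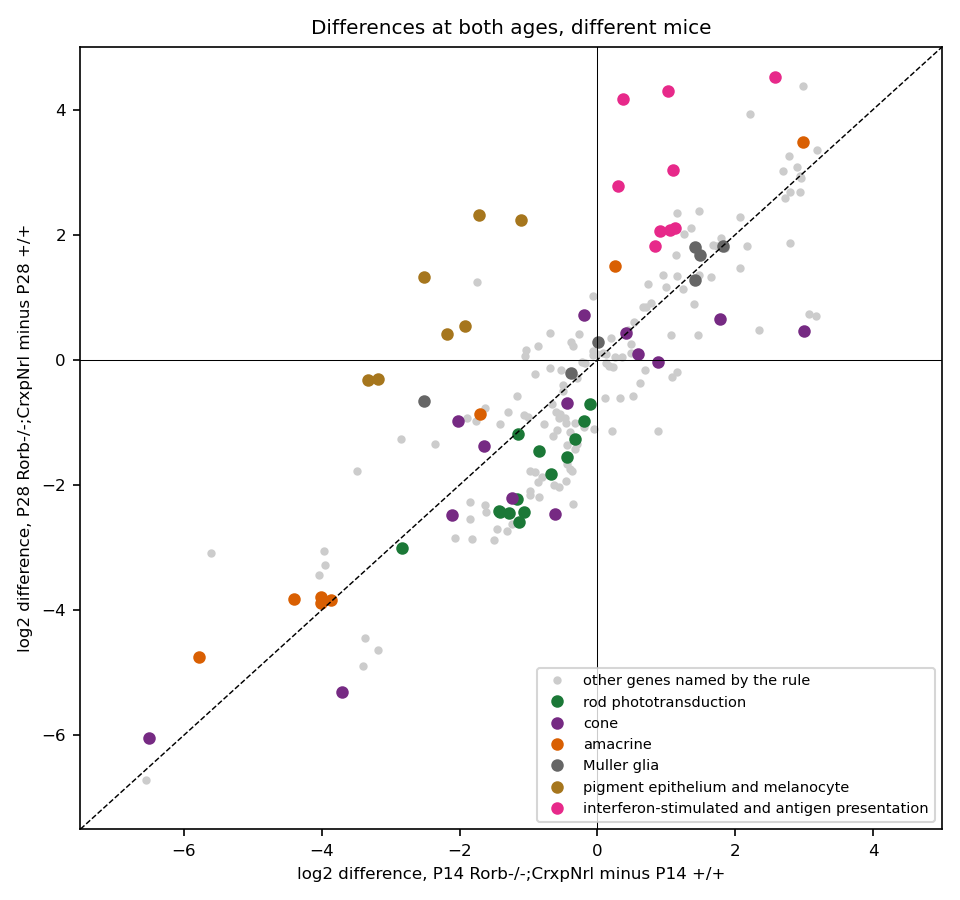
Log2 difference between Rorb-/-;CrxpNrl and +/+ retinas at P14 (x axis) and P28 (y axis) for the 202 genes named by rule, coloured by gene list, with a dashed line where both are equal. Most rod genes lie below the line, and pigment epithelium and interferon genes above it. At the lower left, Opn1mw and the lowest amacrine genes lie near or above the line and Opn1sw below it.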

How the data were processed

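Per the labels, total RNA from both retinas of each mouse was hybridised to Affymetrix mouse arrays. The deposited values are log2 signals that the authors computed with RMA, per the submitters' processing notes, and they were used unchanged; the RMA version is not given in the sources used here. Of 45101 probe sets, 34958 had 1 gene symbol in the platform annotation, 932 several and 9211 none. After 64 control probe sets were left out (13 with a symbol), 34945 probe sets gave 18193 genes, of which 9010 had more than 1 and were represented by their probe set of largest average signal in the series. One limma model over 31 arrays and 8 groups was fitted, with a trend in the prior variance and Benjamini-Hochberg adjustment over all genes. A call is an adjusted p under 0.05, and the 2-fold rule adds a log2 difference of at least 1. The fit was tested on simulated data.

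Named genes are Rorb, Nrl, all members of the photoreceptor transcription factor, rod, cone, termination and cyclase, and outer segment lists, and, of the other lists, the first 3 members and up to 5 called members with the largest difference. The rule adds the 15 largest rises and falls at P14 and the 5 largest each way of the other comparisons, without sex-linked or unnamed genes. The comparison, gene lists and tests were chosen with earlier results of these data known, and the samples of each group were taken by their labels. Alternatives were 2 normalizations, 2 ways of treating probe sets, a filter on dim genes, no fold rule, a prior without trend, weighted arrays, a covariate for sex-linked signal, replicate numbers as blocks, fits of the compared groups alone and leaving out each mouse. Promoter windows are RefSeq sequences of GRCm38.p6, searched for exact motifs on both strands. Precision is limited by 4 arrays per group. R 4.3.3, limma 3.58.1, Python 3.11.15, pandas 2.3.3, numpy 2.4.6 and matplotlib 3.10.9 were used.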

Additional observations from a re-analysis of the deposited data

Results flagged for a closer look

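In 9 of 254 sets of 4 mice, formed by 127 genes of the text in the P14 Rorb-/-;CrxpNrl and P14 +/+ groups, 1 mouse stood far from the other 3 by Dixon's test, which flags about 1 set in 20 by chance. In P14 Rorb-/-;CrxpNrl retinas these were replicate 4 for Kcne2 (log2 signal 8.41), replicate 1 for Notch1 (9.02) and for Pclo, a presynaptic scaffold (9.21), and replicate 2 for Pygm (8.12). In P14 +/+ retinas they were replicate 4 for Cabp4 (10.11), replicate 2 for Cldn5 (9.22) and Plpp2 (11.14), replicate 3 for Pde6c (9.60) and replicate 1 for Prph2 (7.32). The Prph2 value is the one that brings the groups into overlap.

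For 49 of the 127 genes the difference between Rorb-/-;CrxpNrl and +/+ retinas itself changed between P14 and P28. The test was limma's interaction at an adjusted p under 0.05. Of the 49, 28 moved up and 21 down, where 8.85% of all genes moved up and 6.67% down. Genes of the text were named partly for large differences in these same samples, so the 49 cannot be set against those shares. The values given here are the change in that difference, P28 minus P14, on the log2 scale. Photoreceptor genes of the text that moved down were Crx (-1.05), Cngb1 (-1.36), Pdc (-0.78), Gngt1 (-1.11), Rgs9bp (-1.19), Fscn2 (-1.46), Mfge8 (-0.85), Cabp4 (-1.39), Rdh12 (-1.25) and Arl3 (-0.32), whereas Rims1 (1.02), of the ribbon synapse list, moved up. Cone genes that moved down were Otop3 (-2.54), Arr3 (-1.85), Cngb3 (-1.12), Kcne2 (-0.98), Gngt2 (-0.90) and Gnb3 (-0.495). In the inner retina the change was upward for Calb1 (1.58), Lhx1 (0.96), Gad2 (1.25), Slc32a1 (0.84), C1ql2 (0.59), Gng13 (1.12), Trpm1 (1.10), Nefh (1.21) and Thy1 (1.08). Glial and progenitor genes that moved up were Car14 (1.86), Gfap (1.19), Osmr (2.98), Cp (0.75), Cebpd (0.89) and Lhx2 (0.53). Interferon genes moved up with Ifit1 (3.80), Oasl2 (1.95) and B2m (1.94), whereas the lysozyme genes moved down with Lyz1 (-2.35) and Lyz2 (-1.87). Pigment epithelium genes moved up with Dct (4.04), Ttr (3.85), Rgr (3.003) and Rpe65 (2.88), and vessel genes with Cldn5 (0.85) and Rgs5 (0.79). Rdh10 (0.48), of the retinoid cycle list and already higher at P14, moved up as well. Among other genes named for the size of their change at P14, the later change was upward for Lamp5 (1.72) and Plpp2 (0.92) and downward for Myocd (-2.48), Sh2d1a (-1.498) and Apoc1 (-0.93). The call of this change was lost in 7 to 14 of the 16 fits that left out 1 mouse for Cngb1, Pdc, Gngt1, Rgs9bp, Rdh12, Arl3, Arr3, Gngt2, C1ql2 and Rdh10. The 2 ages come from different mice, and no cause of these changes was tested.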

How the results depend on the processing

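Total counts of genes at an adjusted p under 0.05 and at least 2-fold stayed within 1.5 times of those reported under every planned setting but 1. Dropping the 2-fold requirement gave 5463 genes for P14 Rorb-/-;CrxpNrl against P14 +/+, 964 against P14 Rorb-/-, 7264 for P28 Rorb-/-;CrxpNrl against P28 +/+ and 2823 for the change between ages, against 787, 165, 1316 and 466 with it. Leaving out 1 mouse at a time gave 740 to 876, 149 to 196, 1202 to 1507 and 365 to 681 genes in that order, and the other settings 596 to 836, 136 to 178, 1056 to 1509 and 337 to 688. Of the counts split by direction, that of genes lower in the change between ages, 119 as reported, also moved by more: it was 217 with array weights, 75 with only the compared groups, and 209 and 63 without P28 Rorb-/-;CrxpNrl replicate 1 and replicate 3. With the replicate number as a block (replicate block) the counts were 791, 171, 1318 and 477. Mice with the same number in the P14 pair deviated together at r = 0.0996 to 0.1372, so the number was not taken as a pairing. Of the 202 genes named by rule, 151 were called at P14 and 126 of them kept call and direction under every alternative run. Direction reversed for Pclo with the mean of its probe sets (-0.12) and, without probe sets of shared sequence, for Lyz1 against P14 +/+ (-0.0512), against P14 Rorb-/- (-0.0483) and between ages (0.22). Beyond the choice of probe sets the cause of these shifts was not tested. Signals near 4.009 or near 14 compress differences, and 4 mice per group limit the precision.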
